A study of Mus musculus with 6 samples.

Results

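The 10 genes described here mark retinal ganglion cells, the neurons whose axons leave the eye as the optic nerve: Pou4f1, Pou4f2, Isl1, Sncg, Nefl, Nefm, Thy1, Gap43, Stmn2 and Elavl4. They were chosen by name as ganglion cell markers, not by their values. A gene entered when the array annotation gave a probe set its symbol alone, and where several did so the one with the highest mean over all arrays stood for the gene. Of the 10 genes, 8 were measured, among 12393 genes on the array. No probe set in the annotation names Pou4f1 or Pou4f2 alone, and both were not analysed here. The remaining 8 have 12 probe sets.

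RNA of whole mouse eyeballs taken at postnatal day 1 was hybridised to 6 Affymetrix arrays, 1 individual eyeball per array, with 3 Brg1 cKO and 3 wild-type samples of a mixed strain background. Brg1 cKO pups carried homozygous floxed Brg1 alleles (Brg1 flox/flox) together with the Le-Cre transgene. Brg1, the product of Smarca4, is an ATPase of SWI/SNF chromatin remodeling complexes. Le-Cre is driven by a Pax6 enhancer active in the head surface ectoderm, which forms lens, cornea and eyelid epidermis, and the retina arises outside that ectoderm. The study's supplement also noted occasional germline deletion of Brg1 in such mice, and deletion in the retina of the profiled pups was not tested. The controls carry the name wild type in the labels and are littermates by the study's methods, which elsewhere use Brg1 flox/flox mice without Cre as controls. The study reported no difference in phenotype between Le-Cre mice and wild type. No Le-Cre control without floxed alleles was profiled, so effects of the transgene and of Brg1 loss on these RNA values cannot be told apart. By the study's account deletion was incomplete in many embryos and eye defects varied in severity. It also described a thicker neural retina in mutant embryos and a misfolded retina in postnatal mutants. Each array gave 22626 probe sets, with median intensities from 169 to 185. All values below are log2 intensities, differences are Brg1 cKO minus wild type, and the adjusted p-values come from limma with Benjamini-Hochberg adjustment over all probe sets.

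Ganglion cells are among the earliest neurons to leave the progenitor pool of the optic cup. The bHLH factor Atoh7 makes progenitors competent for this fate, and the homeodomain factors Pou4f2 and Isl1 then switch on the ganglion cell program. At birth the cells have sent axons into the optic nerve, and their RNA is rich in transcripts for neurofilaments, growth cone proteins and neuron-specific RNA-binding proteins. None of the measured genes is exclusive to them: Isl1 also marks other retinal neurons, Thy1 is made by fibroblasts and lymphocytes, and Gap43, Stmn2 and Elavl4 are shared by many young neurons.

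Promoter windows of 300 bases, from 250 before to 50 after an annotated start, were held by the RefSeq table of build GRCm38.p6 for 3 of the 8 measured genes. Isl1, Sncg and Elavl4 are shown because they are the only measured markers with such a window, not for their values. E boxes are marked because Atoh7 belongs to the bHLH factors, which bind that motif. Capitals mark each CAGCTG or CAGATG on either strand (CATCTG is CAGATG read on the other strand), and each sequence is written 5′ to 3′ on the strand of its gene.
Isl1, chr13:116309639-116309938, minus strand: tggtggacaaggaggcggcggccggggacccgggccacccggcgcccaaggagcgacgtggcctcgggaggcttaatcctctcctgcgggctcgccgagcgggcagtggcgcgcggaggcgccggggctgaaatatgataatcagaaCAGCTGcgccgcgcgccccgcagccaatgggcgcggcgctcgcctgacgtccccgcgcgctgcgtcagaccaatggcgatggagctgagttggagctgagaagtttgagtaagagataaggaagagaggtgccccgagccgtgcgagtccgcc
Sncg, chr14:34374620-34374919, minus strand: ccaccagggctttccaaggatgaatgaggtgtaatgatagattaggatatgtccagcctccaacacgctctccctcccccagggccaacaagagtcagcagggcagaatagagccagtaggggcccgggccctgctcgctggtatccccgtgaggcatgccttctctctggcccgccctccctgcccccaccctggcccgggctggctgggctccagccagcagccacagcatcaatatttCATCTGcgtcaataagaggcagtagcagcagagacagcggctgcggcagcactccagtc
Elavl4, chr4:110287478-110287777, minus strand: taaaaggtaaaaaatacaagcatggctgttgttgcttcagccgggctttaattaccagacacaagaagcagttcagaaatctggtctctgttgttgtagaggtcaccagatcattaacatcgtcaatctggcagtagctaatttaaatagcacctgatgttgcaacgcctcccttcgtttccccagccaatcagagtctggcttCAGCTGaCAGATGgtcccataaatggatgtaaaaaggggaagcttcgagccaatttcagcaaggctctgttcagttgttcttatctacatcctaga
Isl1 has 1 such E box, which begins 103 bases before the start, and Sncg has 1 that begins 9 bases before it. The Elavl4 window, 1 of 4 annotated for that gene, has 2 that lie almost side by side, beginning 46 and 39 bases before the start, and it also holds the homeodomain core TAATTA, present in 5.29% of all windows. It is the window with the most matches: the most upstream Elavl4 start has neither motif, another window overlaps the one shown and holds the same matches, and the remaining one has 1 E box and no TAATTA. At least 1 of the E box forms occurs in 30.6% of the 32851 mouse windows of the same length, so their presence is a description of these letters only. Base composition differed between the windows: 69% of the Isl1 window, 61.3% of the Sncg window and 43.7% of the Elavl4 window is G or C.

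Transcripts of the ganglion cell markers passed the test for a difference between Brg1 cKO and wild-type eyeballs in neither direction. Of the 8 genes 0 had a limma adjusted p under 0.05, where 0.508% of all probe sets did (115 of 22626), and 0 had an unadjusted p under 0.05, where 8.4% of all probe sets did. The count at an unadjusted p under 0.05 with a fold over 1.5 was also 0, against 6.48% of all probe sets. Differences ran from -0.19 for Nefl to 0.54 for Thy1, with 4 above and 4 below 0. Their median was -0.004, beside 0.019 over all 12393 genes. In 0 of the 8 genes did the groups fail to overlap, against 13.7% of all probe sets. In whole-eye RNA, fewer cells of a type and less RNA per cell cannot be told apart. Every array also took 50 ng of RNA, so each value is relative to the other RNA of that eyeball and not an amount per eye. The summed intensity of lens genes was 180014 to 204490 in wild type, against 50234.8, 119782 and 26384 in Brg1 cKO replicates 1 to 3. How far such changes in other tissues moved the marker values was not tested. All 8 genes had wild-type means above 8.13, the median over all genes, so none lay at the dim end of the scale.

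**Figure D1:**
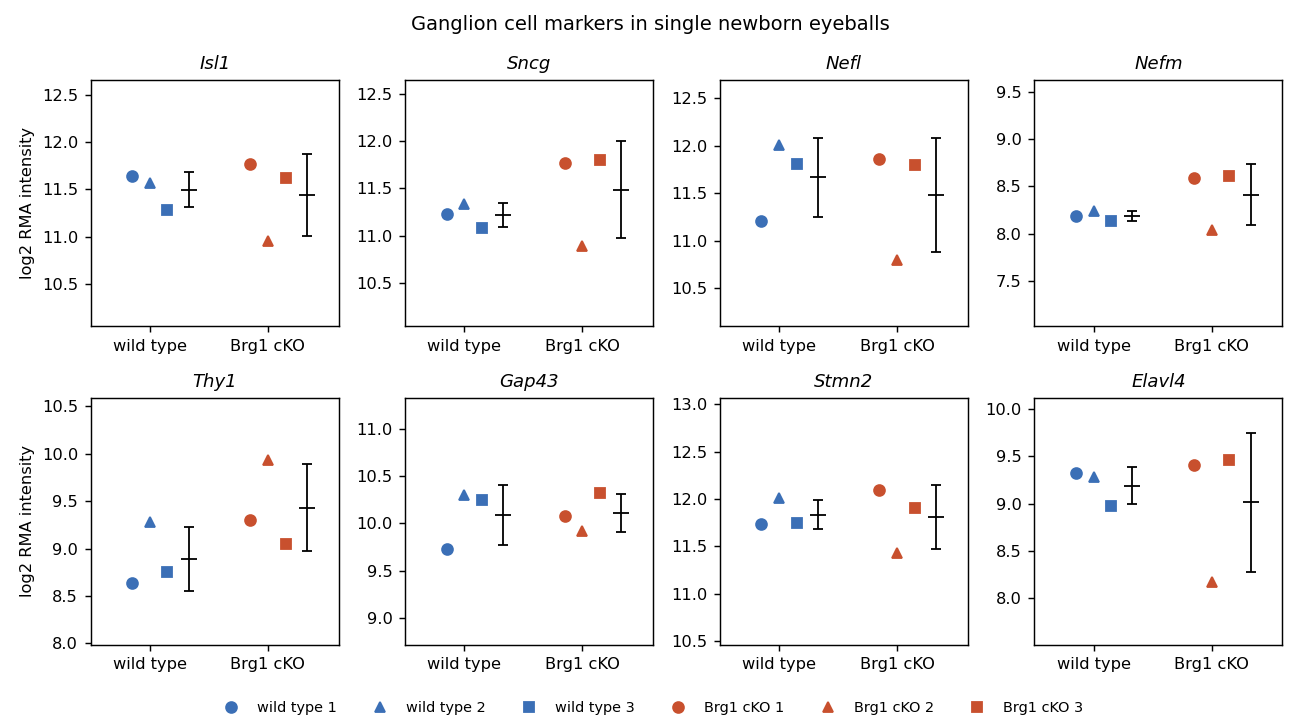
Log2 intensity of each of the 8 ganglion cell markers in the 3 wild-type and 3 Brg1 cKO arrays, with 1 point per array and a bar at each group mean. The groups overlap in every gene, and Brg1 cKO replicate 2 is the lowest of the 6 points for Isl1, Sncg, Nefl, Nefm, Stmn2 and Elavl4.

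Isl1, the LIM-homeodomain factor of the ganglion cell program, read 11.64, 11.56 and 11.28 in the wild-type arrays and 11.76, 10.95 and 11.62 in the Brg1 cKO arrays. Brg1 cKO replicate 1 was the highest of all and replicate 2 the lowest, with the wild-type values between them. The means were 11.49 ± 0.19 and 11.44 ± 0.43 (SD, n = 3 each), a difference of -0.05 (SE 0.25, adjusted p = 0.975). Its 95% interval, -0.64 to 0.54, corresponds to folds from 0.641 to 1.45. A dimmer Isl1 probe set read 9.38, 9.44 and 9.34 in wild type, against 10.17, 9.22 and 9.75 in Brg1 cKO. Here too replicate 2 was the lowest and replicate 1 the highest, around a difference of 0.32 (SE 0.25, adjusted p = 0.810), so the 2 probe sets differ in sign while neither passed the test.

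Sncg encodes gamma-synuclein, which in the retina is concentrated in ganglion cell bodies and axons. It read 11.23, 11.34 and 11.08 in wild type, against 11.77, 10.89 and 11.80 in Brg1 cKO. Replicates 1 and 3 of Brg1 cKO lay above every wild-type array and replicate 2 below every one. The mean difference of 0.27 (SE 0.27, 95% interval -0.37 to 0.91) was no larger than its error, with an adjusted p of 0.853. The SD was 4.03 times as large in Brg1 cKO (0.52) as in wild type (0.13).

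The neurofilament subunits, which set the calibre of axons, were represented by Nefl, the light chain, and Nefm, the medium chain. Nefl read 11.20, 12.00 and 11.80 in wild type, against 11.86, 10.79 and 11.80 in Brg1 cKO. Brg1 cKO replicate 2 was again the lowest, but the wild-type arrays were themselves spread over most of the same range. The difference was -0.19 (SE 0.35, adjusted p = 0.924), and its 95% interval spans folds from 0.4999 to 1.54. Nefm was far more even in wild type, at 8.19, 8.24 and 8.14, than in Brg1 cKO, at 8.59, 8.04 and 8.61. Its SD was 6.33 times as large in Brg1 cKO as in wild type, the widest such gap among the 8 genes. The Nefm difference was 0.22 (SE 0.21, 95% interval -0.26 to 0.71, adjusted p = 0.838). Nefh, the heavy chain, which is not among the 10 markers, was dim and did not overlap between the groups, as held for 13.7% of all probe sets. It read 4.86, 4.36 and 4.15 in wild type, against 5.72, 5.13 and 5.05 in Brg1 cKO. Its difference of 0.84 (SE 0.27) did not pass the adjusted test (adjusted p = 0.419).

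Thy1, a surface glycoprotein anchored by a lipid and long used to purify ganglion cells, had the most positive difference of the 8. It read 8.64, 9.28 and 8.76 in wild type, against 9.31, 9.94 and 9.04 in Brg1 cKO. Unlike for Isl1, Sncg, Nefl, Nefm, Stmn2 and Elavl4, the highest value was that of Brg1 cKO replicate 2, 0.76 above the mean of the other Brg1 cKO arrays. The groups overlapped because wild-type replicate 2 exceeded Brg1 cKO replicate 3. The difference was 0.54 (SE 0.29, 95% interval -0.14 to 1.21), a fold of 1.45 with bounds of 0.910 and 2.32 and an adjusted p of 0.705. Without Brg1 cKO replicate 3 it was 0.73 (SE 0.30), with an unadjusted p of 0.0493 and an adjusted p of 0.401, a setting at which 10.9% of all probe sets passed an unadjusted p under 0.05 with a fold over 1.5. Over all 16 alternatives its adjusted p ran from 0.401 to 0.9996. Its groups did not overlap without that array or without wild-type replicate 2, as was the case for 29.4% and 23% of all probe sets.

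Because Thy1 is also a T cell and fibroblast gene, the markers of those cells were read beside it. Of the T cell receptor complex, Cd3e, Cd3d and Cd3g were at or below 4.73 in all 6 arrays, under the 25th percentile of all values (4.84), while the zeta chain gene Cd247 was above it in all 6, between 5.14 and 7.58. The coreceptor genes Cd8a and Cd4 lay on either side of it, at 4.71 to 5.78 and 4.66 to 5.28. Among 8 measured T cell genes 1 passed the adjusted test, beside 0.508% of all probe sets. It was the cytokine receptor Il7r, higher in Brg1 cKO by 3.27 (SE 0.37, adjusted p = 0.0181). The summed intensity of the list was 167 to 319 in wild type, against 257 to 325 in Brg1 cKO. For the 11 fibroblast and mesenchyme genes the median difference was 0.09, with 0 past the adjusted test. Their summed intensities were 35213.9 to 47096.4 in wild type, against 32885.9 to 44613.3 in Brg1 cKO. Of these genes 5 of 11 were highest in Brg1 cKO replicate 2, against 24.5% of all genes. The part of T cells and fibroblasts in the Thy1 values was not tested.

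Gap43 and Stmn2 encode proteins of growing axons, the former a membrane phosphoprotein of the growth cone and the latter a regulator that destabilises microtubules. Gap43 read 9.73, 10.30 and 10.25 in wild type, against 10.08, 9.92 and 10.32 in Brg1 cKO. It was the single gene of the 8 whose spread was not larger in Brg1 cKO, with SDs of 0.20 against 0.32, and its lowest array was wild-type replicate 1. The difference of 0.02 (SE 0.22, 95% interval -0.50 to 0.53) had an adjusted p of 0.992. Stmn2 read 11.74, 12.01 and 11.75 in wild type, against 12.09, 11.44 and 11.90 in Brg1 cKO. The highest and the lowest value both belonged to Brg1 cKO, around a difference of -0.02 (SE 0.22, 95% interval -0.54 to 0.49, adjusted p = 0.986). The other Stmn2 probe set also had replicate 2 as the lowest array, below Brg1 cKO replicates 1 and 3 and all of wild type (11.01, 11.30 and 10.99 in wild type, 11.56, 10.61 and 11.57 in Brg1 cKO), at a difference of 0.15 (SE 0.29, adjusted p = 0.929).

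Elavl4, the neuronal RNA-binding protein HuD, varied most of the 8 genes among Brg1 cKO eyeballs. It read 9.32, 9.28 and 8.97 in wild type, against 9.41, 8.17 and 9.46 in Brg1 cKO. Replicates 1 and 3 of Brg1 cKO were just above the wild-type arrays, while replicate 2 lay 1.02 below the wild-type mean. The difference was -0.18 (SE 0.36, 95% interval -1.01 to 0.66, adjusted p = 0.932). The other Elavl4 probe sets set replicate 2 farther from the mean of Brg1 cKO replicates 1 and 3, at differences of -1.64 and -1.93 against -1.27. One read 7.32, 7.46 and 7.71 in wild type, against 7.03, 6.20 and 8.65 in Brg1 cKO, and the other 8.11, 7.86 and 8.05 in wild type, against 7.75, 6.29 and 8.69 in Brg1 cKO. In both, replicate 3 was the highest of the 6 arrays and replicate 1 lay below the wild-type range, and the differences of -0.20 (SE 0.56, adjusted p = 0.953) and -0.43 (SE 0.54, adjusted p = 0.885) did not pass the test.

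**Figure D2:**
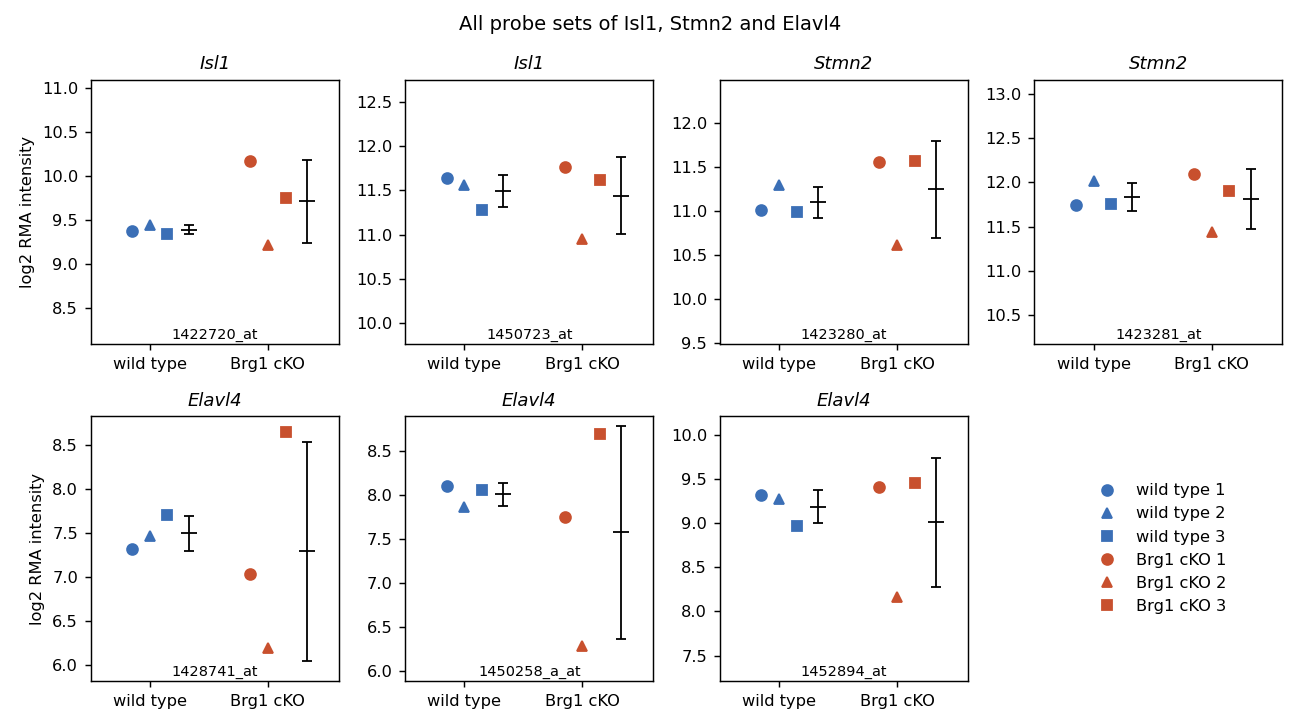
Log2 intensity by array for the 7 probe sets of Isl1, Stmn2 and Elavl4, the 3 markers with more than 1 probe set. Brg1 cKO replicate 2 is the lowest array in each of the 7, while the sign of the mean difference varies between probe sets of Isl1 and Stmn2.

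Exact two-sided permutation tests of the 6 values gave p from 0.2 for Thy1 to 1 for Stmn2 and Elavl4, in a design that cannot go below 0.1. The intervals of the differences were wide. The narrowest, that of Nefm, spans folds from 0.836 to 1.63, and the widest, that of Elavl4, from 0.495 to 1.58.

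**Figure D3:**
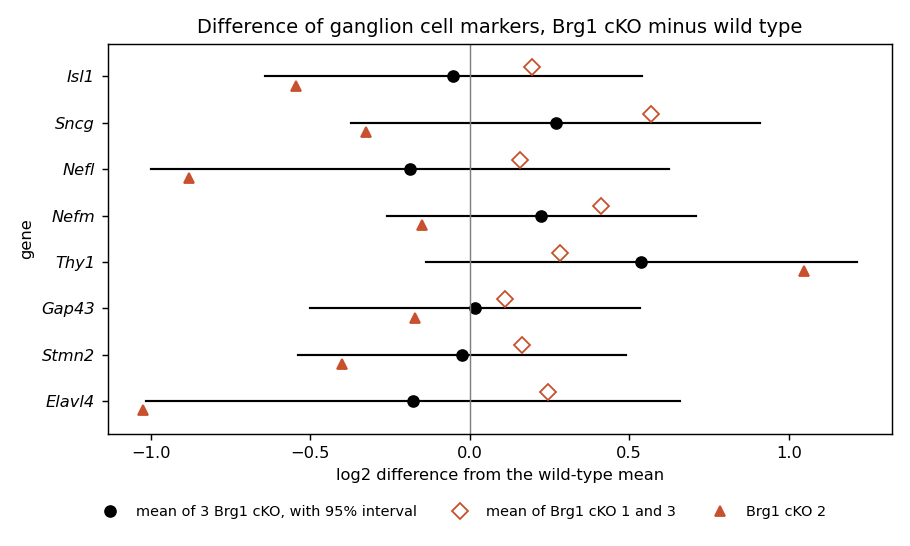
Log2 difference of Brg1 cKO minus wild type for each of the 8 markers, with 95% intervals of limma over 3 arrays against 3, and the same difference without Brg1 cKO replicate 2. All 8 intervals with every array include 0, and without replicate 2 all 8 differences lie above 0. Replicate 2 is the lowest array for 6 of the 8 genes.

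Most of the 8 genes, though not Thy1 and Gap43, had the same uneven pattern among the Brg1 cKO eyeballs. Brg1 cKO replicate 2 was the lowest of the 6 arrays for 6 of the 8 genes, a rank it held for 28% of all probe sets. The SD was larger in Brg1 cKO than in wild type for 7 of the 8, against 65.3% of all probe sets. This was not particular to the markers: it also held for 18 of 21 pan-neuronal, 11 of 13 photoreceptor, 14 of 16 muscle and 20 of 20 lens genes. For amacrine and progenitor genes the counts were 9 of 14 and 9 of 13. The median SD of the markers was 0.189 in wild type, against 0.447 in Brg1 cKO, where over all genes it was 0.207 and 0.294. Between Brg1 cKO replicates 1 and 3 alone the markers' median SD was 0.074, against 0.208 over all genes.

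Array by array, the median deviation of the markers from wild type was -0.07, 0.22 and -0.16 in the wild-type arrays, each set against the other wild-type arrays, and 0.26, -0.36 and 0.19 in the Brg1 cKO arrays, in the order of their numbers. The summed intensity of the 8 genes was 13545.8 to 16652.6 in wild type, 17835.3 and 16999.3 in Brg1 cKO replicates 1 and 3, and 10918.7 in replicate 2. Replicate 2 was thus below the wild-type range in total and replicates 1 and 3 above it. Without replicate 2 the median difference was 0.22, and 8 of 8 differences were above 0, as were 52.2% over all probe sets, where the median over all genes was 0.037. The markers were not alone in this: 13 of 13 photoreceptor genes (median 0.46) and 19 of 21 pan-neuronal genes (0.17) were then above 0. Of amacrine genes 6 of 14 were (median -0.16), and of progenitor genes 7 of 13 (0.04). Sncg, Nefm and Elavl4 then lay wholly above wild type (3 of 8, beside 13.2% of all probe sets, or 23.9% in either direction). Elavl4 did so only in its brightest probe set. In its other probe sets the groups still overlapped, with Brg1 cKO replicate 1 below the wild-type range. For Isl1 and Stmn2 it was the reverse: their dimmer probe sets then lay wholly above wild type, and their brightest ones overlapped. Still 0 of 8 passed the adjusted test without replicate 2. By limma 2 of 8 then had an unadjusted p under 0.05, beside 7.91% of all probe sets. Sncg differed by 0.57 (SE 0.18) with an unadjusted p of 0.0169 and an adjusted p of 0.424, and Nefm by 0.41 (SE 0.17) with an unadjusted p of 0.0463 and an adjusted p of 0.622. Leaving out the array that was lowest for 6 of the 8 genes raises their Brg1 cKO means by construction. These counts, signs and p-values are therefore a description only. Shares over all probe sets, of which 28% were lowest in that array, are not a like baseline.

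Other measures set Brg1 cKO replicate 2 apart as well. It lay at 75.2 on the first principal component of all probe sets, which held 42.3% of the variance, while the other Brg1 cKO arrays lay at 19.3 and 11.9 and wild type between -44.4 and -28.8. Its signal for beta-actin and Gapdh was the most skewed to the 3′ end, a sign read as RNA or amplification quality, with log2 ratios of 1.34 and 1.05 against 0.93 to 1.28 and 0.73 to 0.87 in the other arrays. Of 16 skeletal muscle genes 13, and of 16 macrophage and microglia genes 14, were highest in it, against 24.5% of all genes. Of the macrophage genes 1 passed the adjusted test, beside 0.508% of all probe sets. It was Cd14, a coreceptor for bacterial lipopolysaccharide, which was higher in Brg1 cKO by 5.92 (SE 0.55, adjusted p = 0.00824). In 10 of the 16 every Brg1 cKO array lay above wild type, where 13.7% of all probe sets did not overlap in either direction. The summed intensity of the macrophage genes was 18110.1 in replicate 2, 7715.09 and 8979.92 in the other Brg1 cKO arrays and 3935.78 to 5679.96 in wild type, and that of the muscle genes 85271.9, against 34954.8 and 67063.4 in the other Brg1 cKO arrays, with wild type from 42995.7 to 71513.1. Their part in the lower marker values of that array was not tested.

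Lens genes followed another order. Of 20 measured lens fiber and crystallin genes, 2 passed the adjusted test, both lower in Brg1 cKO, beside 0.508% of all probe sets. The median difference was -2.35. The fall was not limited to these 2: 19 of 20 lay wholly below wild type, where 13.7% of all probe sets did not overlap in either direction. By limma 18 of 20 were lower with an unadjusted p under 0.05 and a fold over 1.5, against 6.48% of all probe sets in either direction. The 2 genes past the adjusted test were Caprin2, an RNA-binding protein gene, at -2.25 (SE 0.30, adjusted p = 0.0287), and Gja3, which encodes a gap junction connexin of lens fibers, at -3.15 (SE 0.43, adjusted p = 0.0319). The median deviation of the lens genes in Brg1 cKO was -2.46 in replicate 1, -0.80 in replicate 2 and -3.70 in replicate 3. Replicate 2, lowest in ganglion cell markers, was thus closest to wild type in lens genes. Lens signal and ganglion cell markers did not run in the same order over these 3 eyeballs. Smarca4, the deleted gene, which cells outside the Cre lineage keep, had differences of 0.18 (SE 0.19, adjusted p = 0.866) and -0.70 (SE 0.30, adjusted p = 0.598) by its 2 probe sets and so did not check the labels. Xist was at 4.88 in Brg1 cKO replicate 1 and at 12.30 to 12.92 in the other 5 arrays, so sex was not balanced between the groups.

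Further genes of the ganglion cell lineage, 35 by name of which 30 were measured, were read beside the markers. Of the 30, 0 passed the adjusted test, 15 differences were above and 15 below 0, and their median was 0.01. Brg1 cKO replicate 2 was the lowest array for 22 of 30, and without it the median was 0.24 with 23 of 30 above 0. Atoh7, the competence factor, was nearly constant in wild type at 8.90, 8.93 and 8.86 and read 9.06, 8.18 and 9.06 in Brg1 cKO, a difference of -0.13 (SE 0.26, adjusted p = 0.933). Isl2, a LIM-homeodomain factor of ganglion cells with crossed axons, read 6.61, 6.92 and 6.42 in wild type, against 7.91, 6.58 and 7.28 in Brg1 cKO. Slc17a6, the vesicular glutamate transporter that ganglion cells use, read 8.46, 9.01 and 8.25 against 9.57, 8.26 and 9.24. In these genes, as in Sncg, Brg1 cKO replicates 1 and 3 exceeded all wild-type arrays; for Isl2 and Slc17a6 the differences were 0.60 (SE 0.34, adjusted p = 0.726) and 0.45 (SE 0.37, adjusted p = 0.816). The adhesion molecule L1cam, which sits on axons, showed the same order with a wider span, from 7.85 in Brg1 cKO replicate 2 to 9.75 in replicate 1, with wild type from 8.65 to 9.24. Rbpms, an RNA-binding protein of ganglion cells, differed by 0.08 (SE 0.22, adjusted p = 0.952). Atoh7, Isl2, Slc17a6, L1cam and Rbpms were picked after their values were seen, so their shared order does not stand for the list. Sox4, Satb1 and Chrna6 did not have Brg1 cKO replicates 1 and 3 above all wild-type arrays. In Cd24a every Brg1 cKO array lay below wild type.

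By the smallest p, the lineage genes beside Nefh were Dlx2, Shh and Sox11. Dlx2, a homeodomain factor of ganglion cell and amacrine precursors, differed by -0.71 (SE 0.29, adjusted p = 0.570). Shh, the signal that ganglion cells send to progenitors, was dim and did not overlap between the groups, at a difference of -0.38 (SE 0.17, adjusted p = 0.620). Of the 30 lineage genes, 1 (Nefh) lay wholly higher and 2 (Shh and Cd24a) wholly lower in Brg1 cKO. Over all probe sets the groups did not overlap for 13.7%. Sox11, a factor required for ganglion cell formation together with Sox4, differed by -0.66 (SE 0.30, adjusted p = 0.622), with 8.82, 8.83 and 8.57 in wild type, against 7.996, 7.54 and 8.69 in Brg1 cKO. Sox11 differed from Isl1 and Sncg in that Brg1 cKO replicate 1, too, lay below wild type.

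Genes of neurons in general were read from 21 of 22 listed, with 0 past the adjusted test and a median difference of -0.04. Tubb3, the neuronal beta-tubulin that is often stained as a ganglion cell marker in the young retina, had non-overlapping groups, with 11.65, 11.84 and 11.50 in wild type, against 12.26, 12.12 and 12.26 in Brg1 cKO. Its difference of 0.54 (SE 0.17) gave a limma unadjusted p of 0.0146 and an adjusted p of 0.410. No other gene of the 21 had non-overlapping groups, which 13.7% of all probe sets had. In Tubb3 replicate 2 stayed above wild type, unlike in Elavl4. Across the list replicate 2 was the lowest array for 14 of 21 genes, and the median deviations in Brg1 cKO replicates 1 to 3 were 0.24, -0.37 and 0.13, close to those of the markers. Dcx, the microtubule protein of migrating neurons, and Mapt, the axonal protein tau, each had Brg1 cKO replicate 2 lowest (10.45 and 8.34, with wild-type means of 11.27 and 9.41).

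The lists of other retinal cells were read array by array in the same way. Amacrine genes (14 measured) had median deviations of -0.02, -0.69 and -0.17 in Brg1 cKO replicates 1 to 3, photoreceptor genes (13) 0.79, -0.29 and 0.21, and progenitor genes (13) 0.17, -0.22 and -0.12. Replicate 2 thus had the lowest deviation of the 3 in each list, as it did for the ganglion cell markers, and whether the lists differ from each other was not tested. Among these genes, 0 passed the adjusted test. The amacrine glycine transporter Slc6a9 (0.62, adjusted p = 0.488) and the photoreceptor retinoid-binding protein Rbp3 (0.46, adjusted p = 0.638) had positive differences, and the factors Sox2 (-0.62, adjusted p = 0.507) and Tfap2b (-0.73, adjusted p = 0.517), and the progenitor signal Fgf15 (-0.54, adjusted p = 0.582), negative ones. Of 6 horizontal cell genes 2 passed, beside 0.508% of all probe sets, and both are also made outside the retina. Calb1, a calcium-binding protein, was higher by 2.004 (SE 0.24, adjusted p = 0.0217), and Prox1, a factor of horizontal cells and of lens fibers, was lower by 1.82 on the log2 scale (adjusted p = 0.021). The lists of optic nerve glia and astrocytes (8 measured), Schwann cells (6) and pituitary and islet endocrine genes (6) had 0 past the adjusted test and median differences of -0.06, -0.02 and -0.30. Their genes were not shown to be read from outside the retina: Fabp7, Olig2 and Slc1a3 were lowest in Brg1 cKO replicate 2.

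**Figure D4:**
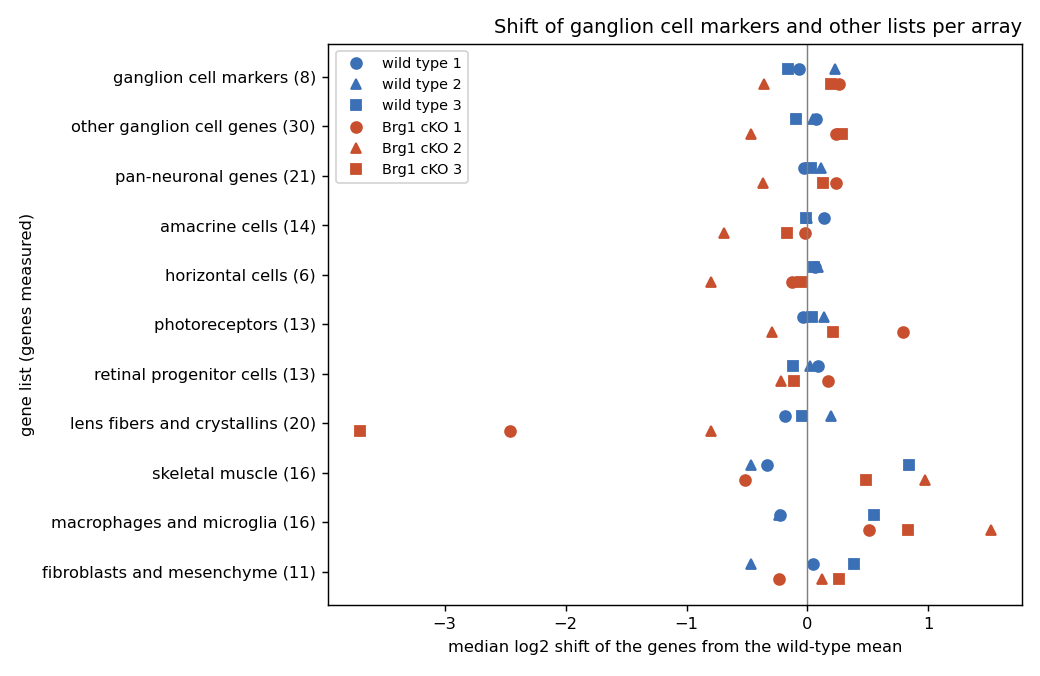
Median log2 deviation from wild type of the ganglion cell markers and of other gene lists in each of the 6 arrays, each wild-type array being set against the other wild-type arrays. Retinal lists are lowest in Brg1 cKO replicate 2, macrophage and muscle lists are highest in it, and lens genes are closest to wild type in it among the Brg1 cKO arrays.

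Over the 6 arrays the median centred profile of the 8 markers was -0.11, 0.15 and -0.15 in wild type, against 0.28, -0.42 and 0.22 in Brg1 cKO. By root mean square distance from that profile, among 6188 other genes brighter than the gene median, the closest were Polr2c, a subunit of RNA polymerase II, at 0.053 log2 units, Mab21l2, a gene of early eye development, at 0.054, Ckap5, a microtubule-binding protein, at 0.072, and the genes D6Wsu163e and 6030458C11Rik at 0.073 and 0.079. Among the 8 markers, Stmn2 (0.070), Nefm (0.116), Isl1 (0.129) and Sncg (0.137) lay nearest to their common profile, Gap43, Elavl4 and Nefl lay farther off (0.227 to 0.263), and Thy1 was the farthest at 0.550. The profile is the median of these same genes, so their distances from it are small partly by construction.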

How the data were processed

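Total RNA of individual eyeballs (50 ng each) was amplified by NuGEN Ovation, labelled with biotin and hybridised to Affymetrix arrays, per the labels. The authors summarised the arrays with RMA, with a version not given in the sources used here, and deposited intensities on a linear scale, which were converted to log2. RMA equalises arrays and compresses differences near background, and amplification adds noise that cannot be separated from differences between pups. The number of arrays limits the precision. No detection calls were used.

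Of 22690 rows, 64 array controls were left out. The platform annotation, which can be old, gave 1 gene to 20380 probe sets, several to 691 and none to 1555. Each probe set was tested with limma 3.58.1 in R 4.3.3 (lmFit and eBayes, genotype as the only term, two-sided, moderated degrees of freedom 7.3), with Benjamini-Hochberg adjustment over 22626 probe sets and a threshold of 0.05. A count at unadjusted p under 0.05 with a fold over 1.5 was added after the study's template matching, and an exact two-sided permutation test was run per gene. The fit was tested on simulated data. Coordinates are given only for the promoter windows, on the build of the RefSeq table, since the arrays carry none.

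Groups and replicate numbers came from the labels, and the samples are individual eyeballs by the study's methods. The named genes are all markers, genes past the threshold in any list, genes among the 4 with the smallest p in the ganglion cell lineage, neuronal and retinal lists, the 5 genes with the closest profiles, Smarca4 and Xist; Atoh7, Isl2, Slc17a6, L1cam, Rbpms, Dcx, Mapt and the T cell genes other than Il7r were added after their values were seen. The markers and lists were chosen with earlier results of these data known, so no test was run over a list. Alternatives were leaving out each array, a replicate block, a filter on dim probe sets, other scalings, array weights, other moderation, a pseudocount of 16, the mean of all probe sets of a gene, template matching, and centring on other retinal genes, the last chosen after seeing the data.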

Additional observations from a re-analysis of the deposited data

How the results depend on the processing

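The count of markers past a limma adjusted p under 0.05 was 0 of 8 in each of 16 alternatives, and the smallest adjusted p of any marker was 0.401, for Thy1. Nefm, Sncg and Thy1 kept positive differences in all 16. The median was computed in 12 of them, not with the block, array weights, other moderation or template matching, and stayed between -0.08 and 0.22. Leaving out each array in turn, the number of markers with non-overlapping groups ran from 0 to 3, with 3 without Brg1 cKO replicate 2 and 1, Thy1, without wild-type replicate 2 or Brg1 cKO replicate 3. It was also 1, Nefm, with arrays centred on 45 other retinal genes, a setting chosen after seeing the data. These counts use the brightest probe set of each gene and depend on that choice. Without Brg1 cKO replicate 2 the other Elavl4 probe sets overlapped, while the dimmer probe sets of Isl1 and Stmn2 lay wholly above wild type. The count past unadjusted p under 0.05 with a fold over 1.5 ran from 0 to 1, Thy1 without Brg1 cKO replicate 3. Without the fold, limma gave Sncg and Nefm an unadjusted p of 0.0169 and 0.0463 without Brg1 cKO replicate 2 (adjusted p of 0.424 and 0.622). That array was the lowest for both genes, so leaving it out raises their differences by construction.

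The sign changed with the array left out for 5 genes, with differences of -0.21 to 0.20 for Isl1, -0.42 to 0.16 for Nefl, -0.17 to 0.12 for Gap43, -0.17 to 0.16 for Stmn2 and -0.40 to 0.24 for Elavl4. Isl1, Nefl, Stmn2 and Elavl4 turned positive without Brg1 cKO replicate 2, Isl1 also without wild-type replicate 1 and Stmn2 without wild-type replicate 2, and Gap43 turned negative without wild-type replicate 1 or Brg1 cKO replicate 3. The cause was not tested. It also changed for Stmn2 after quantile normalization (0.0135), for Gap43 with arrays centred on their median (-0.0296), for Isl1, Stmn2 and Elavl4 with array weights (0.0554, 0.0498 and 0.0123), for Isl1 and Stmn2 with the mean of all probe sets (0.14 and 0.0618), and for both with retinal centring (0.00909 and 0.0361). The median over all probe sets moved by less than 0.1 under each scaling.

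Same-numbered arrays of the genotypes share a number in the labels, which do not say whether they are pairs. Their deviations correlated at 0.06, 0.08 and 0.13. With so few arrays these values cannot show whether they share a litter or a processing day. A limma fit with the replicate block called 0 markers and 45 probe sets in all, against 115, and gave Thy1 an unadjusted p of 0.0334 (adjusted p = 0.516). Over all probe sets the count of calls was 24, 26 and 36 without wild-type replicates 1, 2 and 3, 140, 216 and 53 without those of Brg1 cKO, 190 with array weights, 75 with retinal centring, 32 with a pseudocount of 16 and 0 by template matching, which gave 1628 at an unadjusted p under 0.05.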
